A study of Mus musculus with 18 samples.

Results

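The apelin system was measured through all 5 probe sets annotated to its 3 genes, Apela, Apln and Aplnr, among 45037 probe sets on the array. A probe set is a group of array oligonucleotides that gives a single signal for the transcript or transcripts it matches. The genes were chosen by readout, because Apela had been high on the Neo2/Neo2 and -/- arrays, so the Apela levels are given as a description without a test. RNA came from 18 whole mouse embryos of embryonic day 9.5, 1 embryo per array and 2 per genotype, all on a mixed 129SvEv and C57Bl/6 background. The 9 genotypes were WT (Tbx1 +/+), 3 heterozygotes with 1 wild-type allele (Neo2/+, Neo/+ and +/-) and 5 without one, namely -/-, Neo/Neo, Neo2/Neo2, Neo2/- and Neo2/Neo. The - allele is a null, and Neo and Neo2 are hypomorphic alleles of Tbx1, whose T-box protein regulates transcription in the developing pharynx. No group received a treatment, and no sex, litter or somite count of an embryo was among the labels.

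Aplnr is a G protein-coupled receptor, and Apln and Apela (also called Elabela or Toddler) are genes for its peptide ligands. Signalling through the receptor is known for the movement of mesendoderm cells at gastrulation, for heart formation and for the growth of blood vessels. Apela is the ligand of the early embryo, while Apln and its receptor are well known in the embryonic vasculature, with Apln in endothelial tip cells. In whole embryos, fewer cells of a type and less RNA per cell cannot be told apart.

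On the assembly GRCm38.p6, Apela lies at chr8:65028417-65037336, Apln at chrX:48025146-48034853 and Aplnr at chr2:85136360-85139923. The RefSeq promoter table of that assembly matched 2 of the 3 genes, Apela and Apln. The 250 bases before the start of each are shown because these ligands of 1 receptor had different patterns over the allelic series of a T-box factor; they run 5′ to 3′ on the minus strand, at chr8:65037337-65037586 for Apela and chrX:48034854-48035103 for Apln, with each CpG in capitals.
Apela: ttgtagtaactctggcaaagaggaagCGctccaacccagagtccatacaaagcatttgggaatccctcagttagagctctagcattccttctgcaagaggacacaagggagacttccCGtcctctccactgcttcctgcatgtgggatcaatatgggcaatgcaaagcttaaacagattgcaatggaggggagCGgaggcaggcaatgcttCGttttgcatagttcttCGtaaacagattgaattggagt
Apln: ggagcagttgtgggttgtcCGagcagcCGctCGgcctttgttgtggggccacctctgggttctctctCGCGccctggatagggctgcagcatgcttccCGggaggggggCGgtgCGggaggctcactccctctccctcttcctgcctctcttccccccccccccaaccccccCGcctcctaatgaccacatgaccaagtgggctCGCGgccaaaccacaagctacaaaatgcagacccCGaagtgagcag
The Apela stretch held 5 CpG and was 48.0% G or C, and the Apln stretch held 12 CpG and was 65.2% G or C. Over 32851 promoter stretches of that length the medians were 6 CpG and 52.4%. The T-box core motif GGTGTG was searched on both strands and had 0 matches in either stretch, whereas 16.3% of the 32851 stretches held it. That says only that these letters are not in these windows.

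Tbx1 itself, the targeted gene, had a WT mean of 6.59 ± 0.06 (SD, n = 2) on the log2 signal scale, which is used for every level here. It was 5.07 ± 0.13 (SD, n = 2) in -/- and 5.12 ± 0.11 (SD, n = 2) in Neo/Neo, with both embryos of each under both WT embryos. Neo2/Neo2, labelled with 2 hypomorphic alleles, had 6.62 ± 0.004 (SD, n = 2), inside the range of the WT arrays. Thus the signal did not separate the arrays labelled Neo2/Neo2 from WT; whether this probe set reads the Neo2 transcript like the wild-type one was not tested, and directions drawn from these arrays rest on their labels. In Neo2/Neo and Neo2/- the Tbx1 signal was 5.66 and 5.71, and the heterozygote means lay from 6.30 to 6.54. On +/- replicate 1 it was 6.61, against 6.13 on +/- replicate 2. That array and -/- replicate 1 stood apart from the rest: their median Pearson correlation with the other arrays was 0.975 and 0.985, while the lowest of the other 16 was 0.991. The main results that rest on them are given with and without them, while some correlations and counts are given only with them.

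Apela was high in Neo2/Neo2 and -/- embryos, intermediate in the heterozygotes and in Neo2/-, and low in Neo/Neo, WT and Neo2/Neo. Its brighter probe set, used for Apela below, had a mean of 6.91, above 64.2% of all probe sets. The WT embryos had signals of 6.27 and 6.65. The Neo2/Neo2 embryos had 7.41 and 7.62, a mean 1.05 above WT on the log2 scale or 2.07-fold. The -/- embryos had 7.35 and 7.54, a mean 0.99 above WT or 1.98-fold. All 4 of these arrays were above every other array, by 0.07 between the lowest of them and the highest of the remaining 14, and the Neo2/Neo2 and -/- ranges overlapped.

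Among the heterozygotes, +/- was highest, at 7.20 and 7.29 (1.72-fold over WT in the mean). Neo/+ had 6.95 and 7.01, and Neo2/+ had 6.89 and 6.83. These 6 arrays were all above both WT arrays, and the 3 genotypes did not overlap each other. Neo2/- had 6.71 and 6.91, also above WT and overlapping Neo2/+. Neo/Neo had 6.55 and 6.60, between the WT embryos, and Neo2/Neo had 6.45 and 6.12, the latter the lowest of all. Neo/Neo, with a Tbx1 signal as low as that of -/-, was thus 0.11 from the WT mean of Apela (-0.08 without WT replicate 1 and 0.31 without WT replicate 2), and Neo2/Neo2, with Tbx1 at the WT level, was at the top.

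The order of the genotype means, from the top, was Neo2/Neo2, -/-, +/-, Neo/+, Neo2/+, Neo2/-, Neo/Neo, WT and Neo2/Neo. The pooled SD within a genotype was 0.15 and the SD of the 9 genotype means 0.43. Of the neighbours in this order, Neo2/Neo2 and -/- (0.06 apart), Neo/+ and Neo2/+ (0.12), Neo2/+ and Neo2/- (0.05) and Neo/Neo and WT (0.11) differed by less than that pooled SD. WT and Neo2/Neo were 0.17 apart, but their arrays overlapped. By number of wild-type alleles, the median was 6.81 over the 10 embryos with 0 (from 6.12 to 7.62), 6.98 over the 6 with 1 (from 6.83 to 7.29) and 6.46 over the 2 with 2. The embryos with 0 wild-type alleles thus held both the highest and the lowest arrays. Across the 18 arrays Apela and Tbx1 had a Pearson r of 0.12 and a Spearman rho of 0.18, given without a test.

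**Figure D1:**
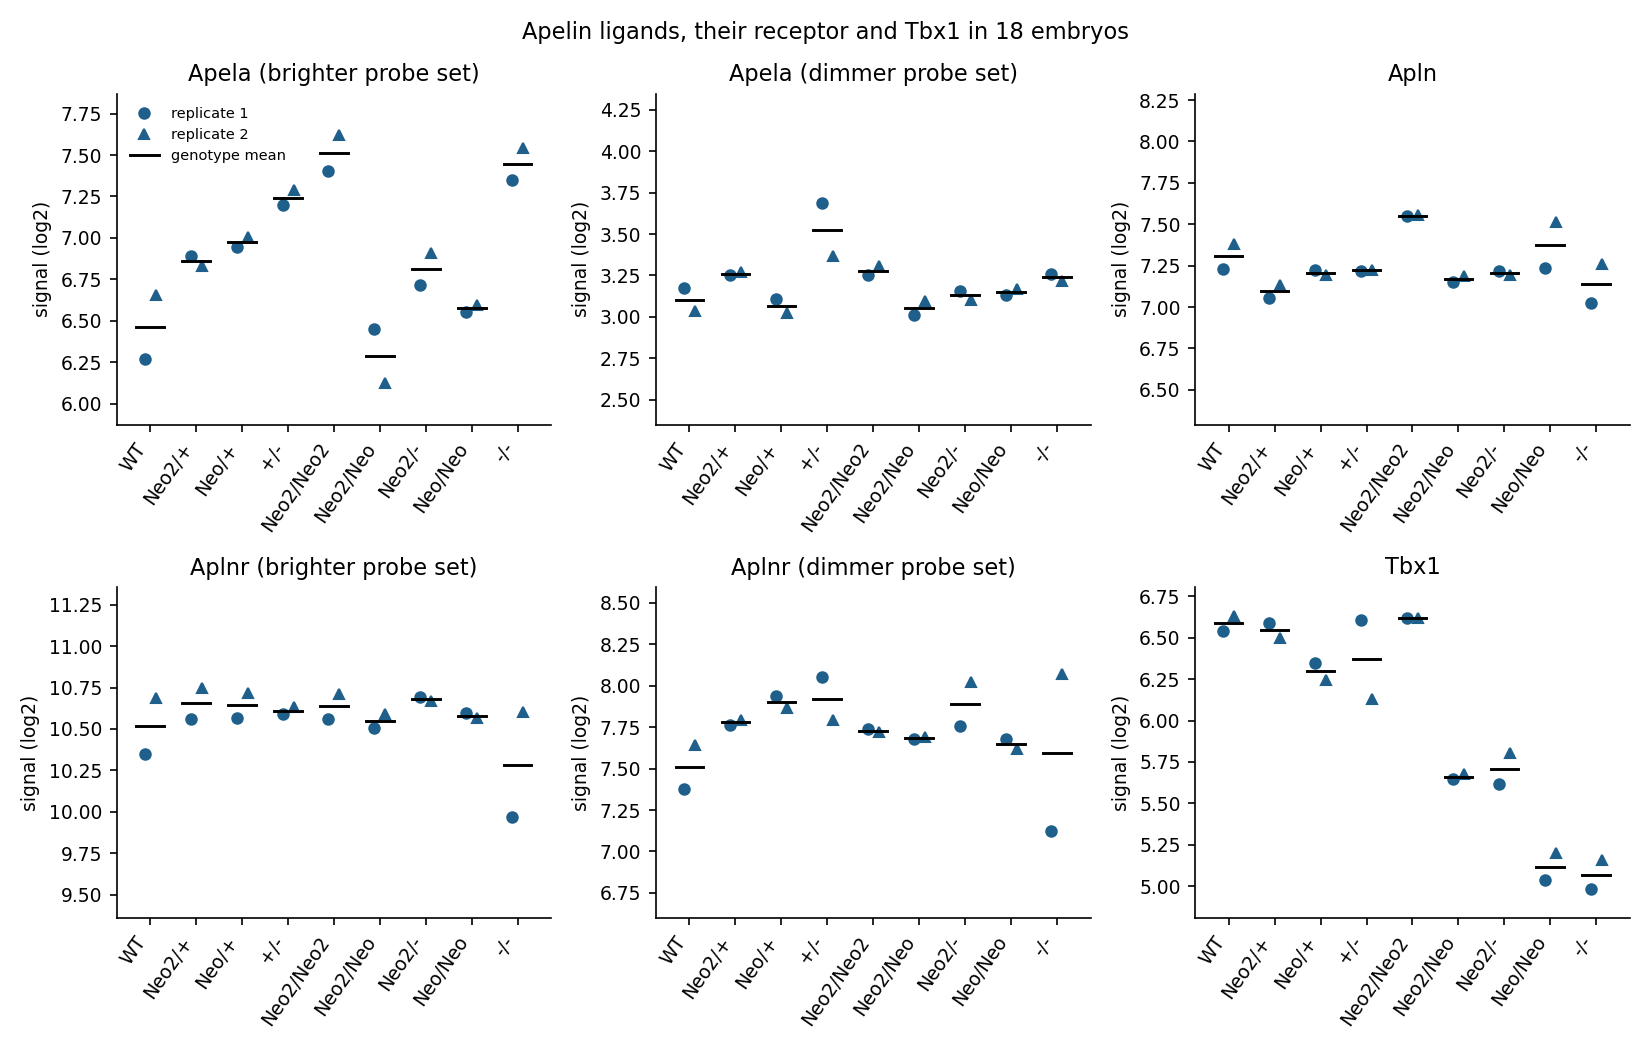
Log2 signals of the 5 probe sets of Apela, Apln and Aplnr and of Tbx1 on 18 arrays, by genotype; circles are replicate 1, triangles replicate 2 and bars the genotype mean, and each vertical axis spans the same log2 width. Apela (brighter probe set) runs from 6.12 to 7.62, Apln from 7.02 to 7.56, and both Aplnr probe sets have their lowest array in -/- replicate 1.

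The dimmer Apela probe set was near the bottom of the array's signals, with a mean of 3.20, above 8.02% of probe sets. Its highest genotype was +/-, at 3.69 and 3.37, where replicate 1 is an array that stood apart. Neo2/Neo2 had 3.25 and 3.31, -/- 3.26 and 3.22, and WT 3.18 and 3.03. The Neo2/Neo2 and -/- arrays were above both WT arrays here too, by 0.18 and 0.13 in the mean, but they were not the highest genotypes. Over the 18 arrays the r of both Apela probe sets was 0.51. The mean of both was 0.61 above WT in Neo2/Neo2 and 0.56 in -/-, which is over 1.5 times less than the brighter probe set gave.

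Leaving out WT replicate 1 lowered the Apela difference to 0.86 in Neo2/Neo2 and 0.79 in -/-, and leaving out WT replicate 2 raised it to 1.24 and 1.18. The 9 embryos called female from Xist and Y-linked transcripts had an Apela mean of 6.90 ± 0.42 (SD, n = 9), and the 9 called male 6.92 ± 0.47 (SD, n = 9). WT and -/- were both all female, Neo2/Neo2 and Neo/Neo were all male, and the other genotypes had 1 embryo of each sex.

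Apela varied together with genes of the tailbud and against genes of neurons. The tailbud is the source of new trunk and tail tissue, and its list held 13 measured genes out of 14 symbols, such as the caudal-type factors Cdx1, Cdx2 and Cdx4, Tbx6 of presomitic mesoderm, Wnt3a, Fgf8 and Cyp26a1, which degrades retinoic acid. Of these 13 genes, 11 had an r with Apela above 0.5 and 0 under -0.5, with a median r of 0.69. Only 7 of the 13 had a mean signal of at least 6, and Tbx6, at 5.37, Cdx1, at 4.84, and Cdx4, at 4.13, were dimmer. Over all 18192 other genes, 14.9% had an r above 0.5 and the median was 0.12. Apela and the lists were chosen with earlier results of these data known. The shares given here and for the lists below are therefore a description without a test. The list score, a mean over genes of each gene's deviation from its own mean, had an r of 0.81 with Apela over the 18 arrays and of 0.94 over the 16 without the arrays that stood apart. These points share their array and its normalization, and each genotype gives 2 of them.

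The tailbud score was 0.52 and 0.61 in the Neo2/Neo2 embryos, -0.29 and -0.19 in WT, and -0.42 and -0.31 in Neo2/Neo. The -/- embryos were split, at -0.34 for replicate 1 and 0.63 for replicate 2. Cdx2, which had a WT mean of 5.86 and a Neo2/Neo2 mean of 7.38, was at 5.58 in -/- replicate 1 and 6.84 in -/- replicate 2. Nkx1-2, a gene of the caudal epiblast, had means of 4.57 in WT and 6.82 in Neo2/Neo2, and 4.87 and 7.19 in the -/- embryos. Of the better expressed tailbud genes, Greb1 had an r of 0.45 with Apela, and Dll1, a Notch ligand of presomitic mesoderm and neurons, had -0.46. Apela was therefore high in both -/- embryos although only replicate 2 had a high tailbud score.

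All 11 measured neuronal genes had an r under -0.5 with Apela, with a median of -0.77, while 7.14% of all genes had one. Elavl3, an RNA-binding protein of postmitotic neurons, had an r of -0.87, Ina, an intermediate filament protein, -0.85, and Tubb3, neuronal tubulin, -0.84. The list score had an r of -0.81 with Apela, and of -0.89 without the arrays that stood apart. It was -0.93 and -0.89 in Neo2/Neo2 and 0.95 and 1.00 in Neo2/Neo, the genotypes at the top and the bottom of the Apela order. The -/- embryos were split again, at 0.35 and -0.94. For Dcx, a protein of migrating neurons, the WT mean was 7.94, the -/- embryos had 8.63 and 5.88, and Neo2/Neo had a mean of 8.95. The neuronal list was drawn up as late genes of developmental timing, beside a list of 8 early ones. The score of that early list had an r of 0.57 with Apela, and of 0.90 without the arrays that stood apart. The maturity of each embryo was not among the labels, and its part in the Apela levels was not tested.

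**Figure D2:**
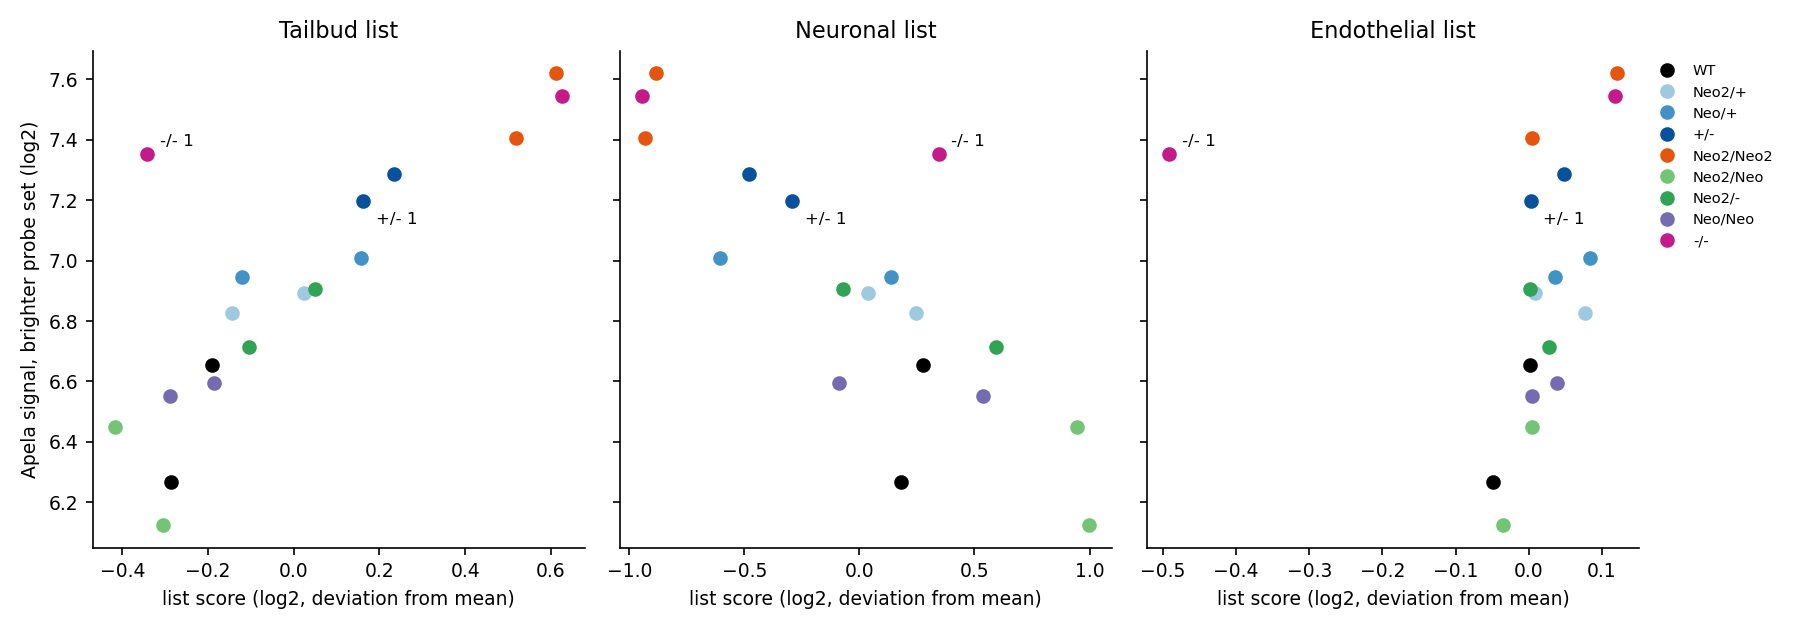
Apela signal (log2, brighter probe set) of each array against its score for the tailbud, neuronal and endothelial lists (log2 deviation from each gene's mean); colours mark genotypes, and the arrays that stood apart are named. The -/- replicate 1 array has Apela at 7.35 with a tailbud score of -0.34, away from the other arrays, and the lowest endothelial score, -0.49.

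Markers of tissues that can stay on a dissected embryo were set against Apela as well, beside the 14.9% of all genes with an r above 0.5 and the 7.14% with one under -0.5. Of 14 visceral yolk sac endoderm genes 4 (28.6%) had an r under -0.5 with Apela and 0 above 0.5, and the list score had an r of -0.59. The most abundant gene of the list, Afp, was at 10.07 in WT and 7.99 in Neo2/Neo2 (r of -0.74). The next most abundant, Cited1, went the other way, at 7.66 and 8.10 (r of 0.48), and Cubn had an r of 0.22. The mean level of that list ranged from 5.77 to 5.93 in WT, from 5.41 to 5.71 in Neo2/Neo2, and from 5.66 to 6.00 in -/-. Of 12 trophoblast genes 2 (16.7%), a share near that of all genes, had an r above 0.5, and their score had an r of 0.60, with levels from 4.30 to 4.37 in WT, from 4.42 to 4.43 in Neo2/Neo2, and from 4.22 to 4.42 in -/-. Its defining marker Tpbpa had a mean of 3.23 and Ctsq of 3.50, both near the bottom of the scale. Of 13 maternal decidua genes 6 (46.2%) had an r above 0.5, and their score had an r of 0.76. Wfdc2 and Spink1 were at 0.79 and 0.88, while the most abundant gene of the list, the collagen Col3a1, was at -0.72 and Dcn, a matrix proteoglycan, at -0.46. That list's levels were from 6.44 to 6.51 in WT, from 6.62 to 6.72 in Neo2/Neo2, and from 6.60 to 6.86 in -/-, where Prap1, a uterine secretory protein, was at 10.74 in replicate 1 and 4.41 in replicate 2. The level of 6.86 was that of replicate 1 and includes the high Prap1 value. The list was not scored without Prap1. Prl8a2, a defining decidual gene, had a mean of 3.46. Without the arrays that stood apart, the r of the score with Apela was -0.67 for yolk sac, 0.76 for trophoblast and 0.77 for decidua. The part of the tailbud, neuronal, yolk sac, trophoblast and decidual genes in the Apela levels was not tested.

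Single genes were also ranked by likeness to Apela, as r over the 18 arrays among 10678 genes with a mean signal of at least 6. The 10 most alike were Fastkd5 (r of 0.94), Cfap298, Cops8, Zmpste24, Gnb1l, Thumpd3, Me2, Tarbp2, Kbtbd8 and Maob (0.92). Gnb1l is a neighbour of Tbx1 on chromosome 16. All 10 kept an r of at least 0.91 without the arrays that stood apart. The 5 most opposed were Zfp445 (-0.95), Baz2b, Suz12, a subunit of Polycomb complex PRC2, Sox4 and Hp1bp3 (-0.90). Their levels moved less than Apela: Fastkd5 went from 8.70 in WT to 8.93 in Neo2/Neo2 and 9.00 in -/-, and Zfp445 from 11.06 to 10.80 and 10.83. In all, 287 genes had an r above 0.8 with Apela and 100 under -0.8.

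Apln, the ligand of endothelial tip cells, varied over a narrower range and did not pass the test in any genotype. It was highest in Neo2/Neo2, at 7.55 and 7.56, against 7.23 and 7.38 in WT. The Neo2/Neo2 arrays were above all 16 others, by 0.03 over the nearest, 1 of the Neo/Neo embryos. The difference from WT was 0.25 (SE 0.11, 95% interval from 0.01 to 0.49), with an unadjusted p of 0.0442 and a limma adjusted p of 0.414. For comparison, Neo/Neo had 7.23 and 7.51, overlapping WT.

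In the remaining genotypes Apln was at or under the lower WT embryo on nearly all arrays. Neo2/+ had 7.06 and 7.13, the lowest mean, which differed from WT by -0.21 (SE 0.11, adjusted p = 0.808 in limma). The -/- embryos had 7.02 and 7.26, a difference of -0.16 (95% interval from -0.40 to 0.07, limma adjusted p = 0.527). It was -0.05 without -/- replicate 1, an array that stood apart, -0.28 without -/- replicate 2, and -0.09 without WT replicate 2. The +/-, Neo/+, Neo2/- and Neo2/Neo arrays all lay between 7.15 and 7.23, under both WT arrays. Apart from Neo2/Neo2, whose mean was 0.18 above Neo/Neo, no neighbours in the order of Apln means differed by more than the pooled SD of 0.10. Apela and Apln were thus both highest in Neo2/Neo2. In -/- Apela was the second highest genotype and Apln the second lowest, but the rank of Apln rests on -/- replicate 1, and replicate 2 alone lay above the means of the 5 genotypes +/-, Neo/+, Neo2/-, Neo2/Neo and Neo2/+. The r of Apela and Apln was 0.24 over the 18 arrays, -0.004 without the lowest and the highest Apela array, and 0.39 without the arrays that stood apart.

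Apln is X-linked, and its mean was 7.19 ± 0.11 (SD, n = 9) in female and 7.31 ± 0.17 (SD, n = 9) in male embryos. Neo2/Neo2 was all male and WT all female, and with sex as a covariate the Neo2/Neo2 difference was 0.22 (adjusted p = 0.829 in limma). The genes most like Apln were Smtnl2 (r of 0.86), Calcoco1, Ero1a, an oxidoreductase of protein folding in the endoplasmic reticulum, Rtn4rl1 and Rnf213 (0.77). The most opposed were Pcgf3 (-0.79), Gpsm2 and Msrb2 (-0.78). Beyond an r of 0.8 there were 2 genes for Apln (0.0187% of 10678), against 287 above 0.8 and 100 under -0.8 for Apela (3.62%). For the brighter Aplnr probe set there were 384 above 0.8 and 23 under -0.8 (3.81%), but for the dimmer only 63 and 4 (0.627%). These counts were taken with all arrays, and how far they depend on the arrays that stood apart was not tested. Without those arrays, the genes listed below as most like the brighter Aplnr probe set had an r from 0.69 to 0.86. The most opposed had an r from -0.47 to -0.31.

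Aplnr, the receptor, did not pass the test in any genotype by either probe set. The brighter probe set had a mean of 10.57, above 95.6% of probe sets, and 16 of the 18 arrays lay between 10.51 and 10.75. The WT embryos had 10.35 and 10.69. The -/- embryos had 9.97 and 10.60, and replicate 1 was the lowest of all 18. Genotype means ran from 10.29 in -/- to 10.68 in Neo2/-, with the ranges of all neighbours in the order overlapping. For Neo2/Neo2, with 10.56 and 10.71, the difference from WT was 0.12 (95% interval from -0.26 to 0.49, limma adjusted p = 0.867).

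The -/- difference of the brighter Aplnr probe set from WT was -0.23 (SE 0.17, 95% interval from -0.61 to 0.14, adjusted p = 0.579 in limma). It turned to 0.09 (adjusted p = 0.894 in limma) without -/- replicate 1, and became -0.55 (adjusted p = 0.0296 in limma) without -/- replicate 2, when replicate 1 alone stands for the genotype. Many endothelial genes were low on the same array. Cdh5, the vascular cadherin, was at 5.14 in -/- replicate 1 and 6.50 in replicate 2. The lymphatic and vascular receptor Flt4 had 5.98 and 7.76, Kdr, a VEGF receptor, 7.65 and 8.74, and Tie1, an endothelial kinase, 6.35 and 7.43. Not every gene of the list was low. Emcn had 9.09 in -/- replicate 1, the highest of its 18 values, and Robo4 had 5.96 against a WT mean of 5.90. The score of all 19 endothelial genes was -0.49 in -/- replicate 1 and 0.12 in replicate 2, while every other array lay between -0.05 and 0.12. Over the 18 arrays that score had an r of 0.91 with the brighter Aplnr probe set, and of 0.61 without the arrays that stood apart; the part of the endothelial genes in the Aplnr level was not tested.

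The dimmer Aplnr probe set had a mean of 7.74 and a wider spread. WT had 7.38 and 7.64, the lowest mean, and +/- had 8.05 and 7.79, the highest, which differed by 0.41 (SE 0.22, adjusted p = 0.483 in limma). The 8.05 was that of +/- replicate 1, an array that stood apart. Replicate 2 alone was under the means of Neo/+ (7.90) and Neo2/- (7.89). Neo/+, at 7.94 and 7.87, Neo2/-, at 7.76 and 8.02, Neo2/+, Neo2/Neo2 and Neo2/Neo also had both arrays above both WT arrays. The -/- embryos had the lowest and the highest array of all, 7.12 and 8.07, so their mean difference of 0.09 (adjusted p = 0.905 in limma) covers both. Leaving out -/- replicate 1 made it 0.56, and leaving out replicate 2 made it -0.39.

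Both Aplnr probe sets had an r of 0.75 over the 18 arrays (permutation p = 0.00164, adjusted over 6 relations 0.0098), and a rho of 0.46 (permutation p = 0.055, adjusted 0.33). The r was 0.08 without -/- replicate 1 and WT replicate 1, so the relation rests on those arrays. It was 0.52 (permutation p adjusted over 6 relations 0.258) without the arrays that stood apart. In the other 5 relations, of Apln with each Aplnr probe set and of Tbx1 with all 3, r was from 0.10 to 0.37 and the lowest adjusted permutation p was 0.317. Replicates of a genotype count as separate points in these tests.

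**Figure D3:**
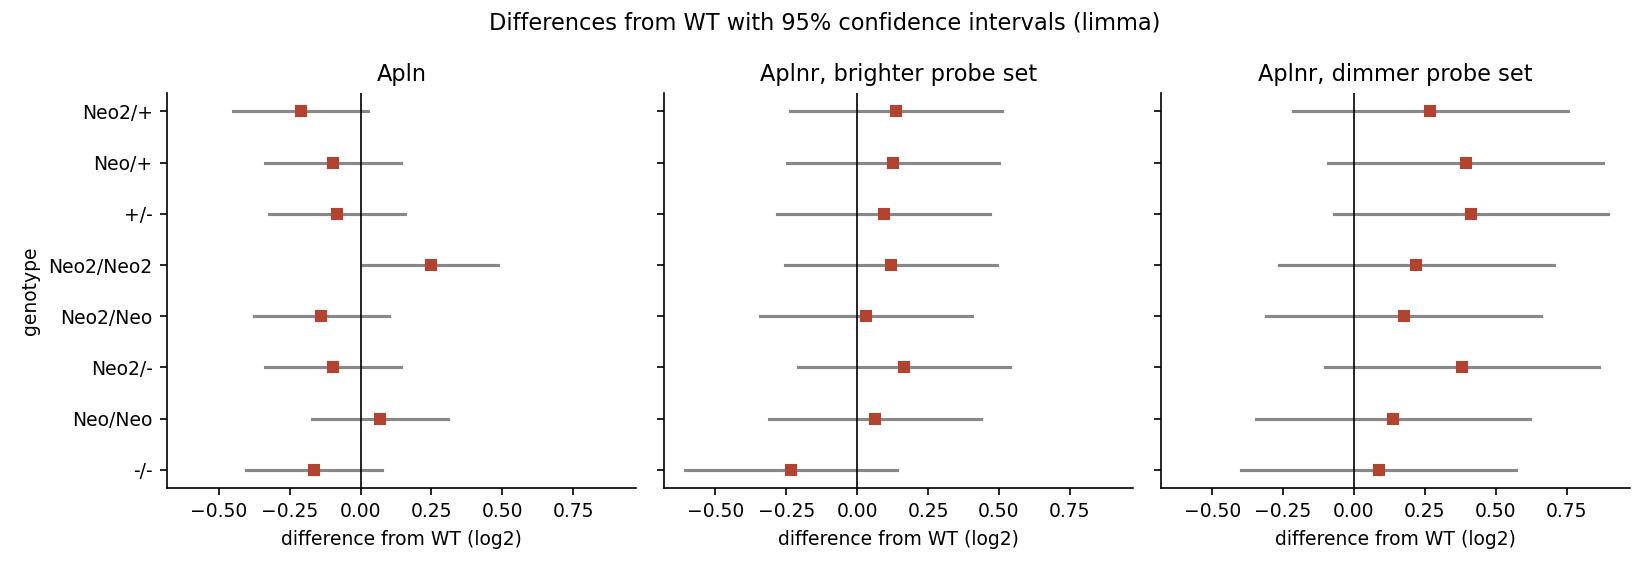
Differences from WT (log2) of Apln and both Aplnr probe sets in 8 genotypes, each with its 95% confidence interval from limma. The interval of Apln in Neo2/Neo2, from 0.01 to 0.49, is the only 1 of 24 that does not include 0, before adjustment over all probe sets.

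Of the 33 tests of Apln and Aplnr, 0 passed the threshold, an adjusted p under 0.05 over all probe sets. Beside the 24 comparisons with WT these were an F-test of any difference between the 9 genotypes, a comparison of 0 with 1 wild-type allele and a slope on the Tbx1 signal. The background was low: 0% of all probe sets were called in Neo2/+ and +/-, 0.0311% in Neo/+ and in -/-, 0.00222% in Neo2/Neo2, Neo2/Neo and Neo2/-, and 0.0822% in Neo/Neo. The F-test called 0.275%, and for Apln it gave 3.23 with an unadjusted p of 0.0311 and an adjusted p of 0.318 in limma. For the Aplnr probe sets its adjusted p was 0.704 and 0.746. Comparing 0 with 1 wild-type allele called 0% of probe sets, with differences of 0.11 for Apln and of -0.09 and -0.16 for Aplnr, and the slope on Tbx1 called 0% as well, with slopes from 0.05 to 0.11 per log2 unit of Tbx1. At an unadjusted p under 0.05 there were 2 of 33, both for Apln.

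The wider apelin pathway was followed in a list of 38 symbols, of which 31 were measured. It covered G proteins and arrestins that act at the receptor, proteases that mature or break down the peptides, and targets and partners in vessels. None of the 31 was called in any genotype by limma at an adjusted p under 0.05, and 0 to 5 had an unadjusted p under 0.05, which 6.28% to 15.1% of all probe sets had. Their median difference from WT was 0.10 in Neo2/Neo2, with 22 of 31 above 0, beside a median of 0.005 over all probe sets. In the 6 other genotypes apart from -/- it lay from 0.07 to 0.12, beside medians over all probe sets of -0.02 to 0.04. The highest of those background medians was in +/-, where the list's median went from 0.12 to 0.07 without +/- replicate 1. In -/- it was -0.07, with 13 of 31 above 0, and turned to 0.07 with 18 above 0 without the arrays that stood apart. The WT embryos themselves differed, with a list score of -0.15 in replicate 1 and 0.03 in replicate 2. In the genotypes other than WT and -/-, the mean list score lay from -0.02 to 0.05. The differences of this list were not taken without WT replicate 1, so how far they depend on that array was not tested.

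The smallest p-values in Neo2/Neo2 were those of Gna13, a G protein subunit, which was 0.40 above WT (adjusted p = 0.300 in limma), Furin, a protease that cleaves precursor peptides (0.35), and Sox17, an endoderm and arterial factor (0.39). Sox17 was above WT in every other genotype too, by 0.32 in Neo2/+ up to 0.56 in Neo2/-. Without the arrays that stood apart, Nos3, the endothelial nitric oxide synthase, was called in Neo2/Neo2, 0.52 above WT (adjusted p = 0.0418 in limma), which it was not with all arrays (adjusted p = 0.425). In that setting 911 probe sets, 2.02% of all, were called in Neo2/Neo2, so 1 of 31 pathway genes (3.23%) is near the background. In -/- the smallest were those of the receptor Notch1, at -0.94 (adjusted p = 0.156 in limma), the venous factor Nr2f2, at -0.50, and the G protein subunit Gnaq, at -0.24. Without the arrays that stood apart these were -0.40 for Notch1, -0.28 for Nr2f2 and -0.09 for Gnaq. Notch1 had 7.95 in -/- replicate 1 and 9.01 in replicate 2, both under the WT mean of 9.42. Nos3 had 6.26 and 7.28 there, on either side of its WT mean of 6.74.

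**Figure D4:**
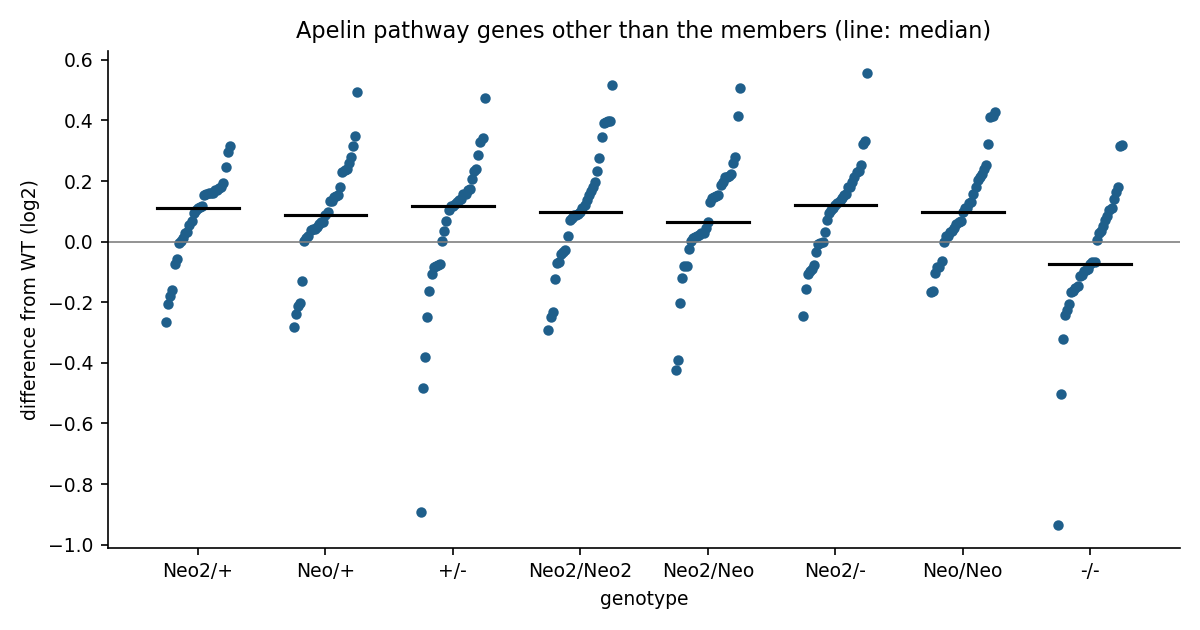
Differences from WT (log2) of the 31 measured apelin pathway genes other than Apela, Apln and Aplnr, 1 point per gene in rising order within each genotype, with the median as a line. Medians lie from 0.07 to 0.12 except in -/-, at -0.07, where Notch1 is the lowest point at -0.94.

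The genes most like the receptor included endothelial genes. For the brighter Aplnr probe set they were Ptprb, the vascular endothelial phosphatase (r of 0.95), AU040320, Hsd11b2, Prkx and Rreb1 (0.92), and the most opposed were Ntan1 (-0.88), Shld1 and Zfp148 (-0.85). Without the arrays that stood apart Ptprb kept 0.86, while Prkx had 0.69 and Zfp148 -0.31. For the dimmer probe set they were Atrip (0.90), Cldn5, a tight junction protein of endothelium, Foxred2, Esam, an adhesion molecule of endothelium, and Dhrs13 (0.87), and the most opposed were Fam135a (-0.84), Usp34 and Zwint (-0.82). No gene was among the 5 most alike for both probe sets.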

How the data were processed

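Whole-embryo RNA of 18 embryos was hybridised to Affymetrix mouse arrays. The deposited values are log2 probe set signals that, per the submitters' processing notes, the authors made by RMA in the affy package; versions and filters are not stated in the sources used here. RMA equalises distributions between arrays and gives no detection call, so dim signals may be background, and precision is limited by the number of arrays.

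Values were used as deposited, with no filter. Differences were tested two-sided with limma 3.58.1 in R 4.3.3 (lmFit and eBayes) in a fit of 9 genotype means (9 residual degrees of freedom), of 3 means by wild-type alleles (15) or on Tbx1 (16), with Benjamini-Hochberg adjustment over 45037 probe sets, and were tested on simulated data. Genes were named through the platform annotation and RefSeq (GRCm38.p6); a gene with several probe sets was represented by its brightest outside the members. Correlations used 1e+05 permutations. Named genes are all members and Tbx1, the genes most and least like each member, pathway genes that were called or else had the smallest p, and up to 4 abundant or defining genes of a marker list; others were chosen after their values were seen. Other lists scored were cardiomyocytes, definitive endoderm and notochord, early embryo and early timing genes. Alternatives were array scale, a signal filter, an intensity trend, array weights, sex, the replicate number, the arrays fitted and arrays left out. The members and lists were chosen with earlier results of these data known.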

Additional observations from a re-analysis of the deposited data

Results flagged for a closer look

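In groups by number of wild-type alleles, the lowest or highest array was set against the others for each of the 5 probe sets, in 10 groups of 6 or 10 arrays; chance marks about 1 in 20 such groups. Aplnr on -/- replicate 1 lay apart from the 10 arrays with 0 wild-type alleles for both probe sets. The brighter gave 9.97 there, with the next lowest array at 10.51, a gap of 0.72 of the whole range. The dimmer gave 7.12, with the next at 7.62, a gap of 0.52 of the range. The limit for 10 arrays is 0.466.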

How the results depend on the processing

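Over 882 alternatives for the 33 tests of Apln and Aplnr, 1 passed the threshold and 16 turned the sign. The brighter Aplnr probe set in -/- passed without -/- replicate 2 (-0.55). Without the 2 arrays that stood apart it was 0.0866, the slope of the dimmer probe set on Tbx1 was -0.0555, the pathway genes called in Neo2/Neo2 were 1 in place of 0 (over all probe sets 911 in place of 1), and r turned to -0.21 for Apln and to -0.19 for Tbx1, each with the dimmer Aplnr probe set. Other settings on Apln and Aplnr, apart from arrays left out, turned no sign and ended no call. With the mean of both Apela probe sets the difference was 0.61 in Neo2/Neo2, 0.56 in -/- and 0.60 in +/-.

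Leaving out 1 array at a time, Apela ranged from 0.86 to 1.24 in Neo2/Neo2, from 0.79 to 1.18 in -/- and from 0.588 to 0.975 in +/-. The brighter Aplnr probe set ranged from -0.55 to 0.0866 in -/-, from -0.0316 to 0.31 in Neo2/+, from -0.0440 to 0.29 in Neo/+, from -0.0762 to 0.26 in +/-, from -0.0499 to 0.29 in Neo2/Neo2, from -0.14 to 0.20 in Neo2/Neo, from -0.00460 to 0.33 in Neo2/- and from -0.11 to 0.23 in Neo/Neo; without WT replicate 1, all but -/- turned. The dimmer ranged from -0.39 to 0.56 in -/- and, as a slope on Tbx1, from -0.0215 to 0.15. Apln in Neo/Neo ranged from -0.0710 to 0.21. The cause was not tested.

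Same-numbered replicates did not pair: over 36 genotype pairs their deviations correlated at -0.26 to 0.19 (median 0.04). With a replicate block, Apln in Neo2/Neo2 was 0.25 (adjusted p = 0.362 in limma), and no call changed. The dimmer Apela probe set, with a mean of 3.20, lies near the bottom of the scale, where RMA values do not separate signal from background.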

Other observations

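Apela was also set against 4 other gene groups. The score of 8 genes of early developmental timing had an r of 0.57 with Apela over the 18 arrays and of 0.90 over the 16 without +/- replicate 1 and -/- replicate 1. For 12 definitive endoderm and notochord genes r was 0.43, and 0.86 over those 16. For 10 cardiomyocyte genes it was 0.25, and 0.73 over those 16. For 15 early embryo genes it was 0.51, and 0.48 over those 16. Only 1 of these 15 genes had a mean signal of at least 6. An r above 0.5 was found for 2 of the 15 (13.3%), a share near the 14.9% of all genes. On the 16 arrays the endothelial score, which had an r of 0.004 with Apela over all 18, had an r of 0.76. Apln had its highest r with the definitive endoderm and notochord score, 0.68, and with the cardiomyocyte score, 0.63. Over those 16 arrays these were 0.65 and 0.62, beside 0.63 for the early embryo and 0.61 for the trophoblast score. Against 9.63 in WT, the mean level of the cardiomyocyte genes was highest in Neo2/Neo2, at 10.08, and in Neo/Neo, at 9.86. The Apln means were highest in these genotypes too, but embryos differed. The cardiomyocyte score was -0.003 and 0.42 in the Neo/Neo embryos. It was -0.70 and 0.42 in the -/- embryos, where Apln was 7.02 and 7.26.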
